A study of Mus musculus with 6 samples.

Results

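Among the accessible regions that ATAC-seq found in 2 NIH3T3 lines, 840 had no gene start site close enough for the table to attach a gene, were strong, and had almost the same signal in both lines. They were chosen by 3 conditions on the deposited table of 52957 regions: no gene attached to the region, a mean over the 6 libraries of at least 150 normalised reads, and an absolute log2 ratio of the active-line mean to the inactive-line mean below 0.1. Of the 33724 distal regions, meaning those without an attached gene, 4530 passed the limit on strength, and the 840 equal regions were 18.54% of these. The values that chose them are the same values that compare the lines, so their closeness between the lines is a description of the choice and is not tested here. Their width, spacing, chromosomes and neighbours were not conditions of the choice, but they are not all independent of it. The limit on strength applies to reads totalled over a region, so it favours wide regions. A shift of a whole chromosome or window is part of each region's ratio, which the bound limits.

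The cells were NIH3T3, an immortalised mouse fibroblast line. Stable lines carried the T3H48 hammerhead ribozyme, an RNA that cuts itself, in intron 3 of Actg1, which encodes cytoplasmic gamma-actin. In 3 libraries the knocked-in ribozyme was active, so that the Actg1 pre-mRNA can be cut, and in 3 libraries it was an inactive form in the same intron. The samples used here include no unedited NIH3T3 cells. The labels give no treatment, time or clone, and nothing tells whether a line's 3 libraries are separate cultures. A p-value here therefore reflects the scatter among these 6 libraries alone, which could be technical, and ribozyme activity and the identity of the line cannot be told apart.

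In ATAC-seq the transposase Tn5 inserts sequencing adapters where DNA is not covered by nucleosomes, and the pile-up of reads marks accessible DNA. Accessible sites far from promoters include enhancers, which bind combinations of transcription factors and differ between cell types, and sites of the insulator protein CTCF, which anchor chromatin loops and are shared by many cell types. The deposited values do not say which kind a region is, and the DNA of the regions was not read here. Whether a region without an attached gene lies at a start site inside a gene was not examined either.

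The deposited library totals were close to one another, between 6433944 and 6548535 normalised reads, because the authors had scaled the libraries. The reads behind them were estimated to differ more. The scale factors, estimated from whole numbers that rounding had skipped or overfilled, put 5340000, 3710000 and 6840000 reads in regions in the active libraries, against 8960000, 8400000 and 7330000 in the inactive libraries. By these estimates every active library was shallower. The rounding pattern was matched least well in active library 3 (correlation 0.89) and inactive library 3 (0.878), whose estimates lie closest together across the lines. Promoter regions, within 1 kb of a start site, were found for 11 of 15 fibroblast marker genes, with library means between 32.0 and 827.3, for 1 of 6 epithelial, 1 of 5 endothelial, 0 of 6 blood and 2 of 6 neural markers. Regions attached to Actg1 itself were not analysed here.

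Across the whole table the lines differed widely. With limma, fitted to log2(value + 1) of 51253 regions (mean 10 or more), 60.1% of regions passed an adjusted p of 0.05 (Benjamini-Hochberg), of which 30.9% of regions were higher and 29.2% lower in the active line, and the 3 active values did not overlap the 3 inactive values in 62.3%. The equal regions stand against that background by construction: 0 of 840 were called by limma, 1 had an unadjusted p under 0.05, and 39 had values that did not overlap between the lines. Without the mean-variance trend, or with the replicate number as a block, the count of unadjusted p-values under 0.05 was 0. Nothing about the regions is read from these counts, since the choice fixed them.

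For comparison, distal regions that passed the same limit on strength and changed at least 2-fold were taken from the same table. There were 130 such regions higher in the active line and 80 lower. A further 1613 strong distal regions leaned higher and 1867 leaned lower without reaching 2-fold. These classes too were formed from the measured ratio, so the comparisons below are descriptions over regions, with no p-value. Over the regions of a class, the mean had a median of 246.3 normalised reads in equal, 192.8 in higher and 194.8 in lower regions. Strength is matched below only where classes of mean or weights are given.

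**Figure D1:**
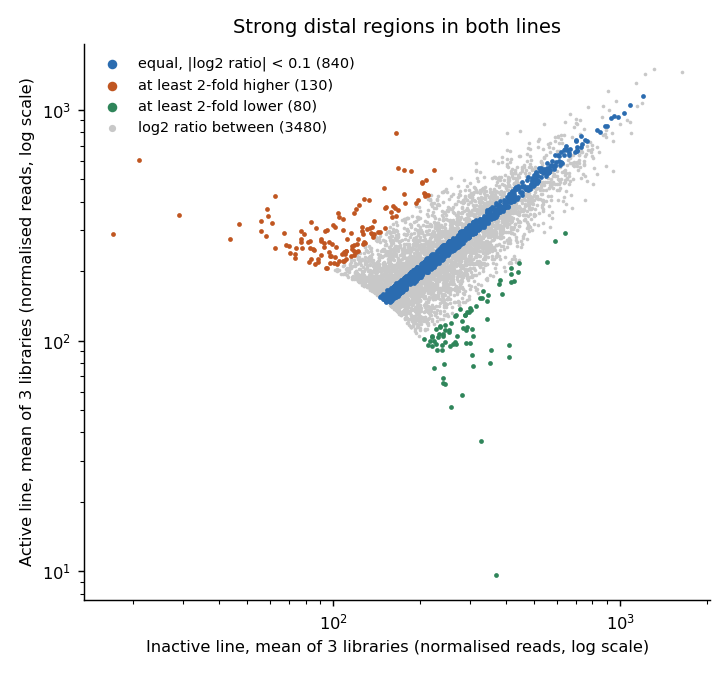
Mean normalised reads in the active line (y axis, log scale) against the inactive line (x axis, log scale) for the 4530 strong distal regions, each point a region, coloured by class. The 840 equal regions follow the diagonal up to a mean of 1177, while no region changed at least 2-fold has a mean above 481.2.

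The strongest equal region, chr17:18057890-18058923 (build mm39, 1033 bp), lay inside the gene bounds of Spaca6, whose product is needed for fusion of sperm and egg, with Has1, a hyaluronan synthase, as the next gene on its other side. It had 1136, 1127 and 1182 normalised reads in active libraries 1 to 3, against 1172, 1187 and 1258 in inactive libraries 1 to 3. The values of the lines overlapped, and the 95% interval of the limma log2 fold change ran from -0.16 to 0.02.

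Second was chr4:33247504-33248842 inside Pnrc1, a nuclear receptor coregulator gene, with 1025, 1071 and 1065 normalised reads in the active libraries, against 1100, 1056 and 1083 in the inactive libraries. The inactive values enclosed 2 of the active ones. Inside Sertad2, a transcriptional coregulator gene, chr11:20581277-20582480 had 966, 928 and 925 in the active libraries, against 943, 942 and 971 in the inactive libraries. The closest pair of means among the 10 strongest was at chr1:191128587-191130061, between Pacc1, a proton-activated chloride channel gene, and Ints7, which encodes a subunit of the Integrator complex: 959, 906 and 908 in the active libraries, against 942, 908 and 927 in the inactive libraries. The limma interval there was -0.10 to 0.09.

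The region chr9:100524445-100526695 was the least equal of the 10 strongest. It lies between Nck1, an adaptor protein that links receptor signals to the actin cytoskeleton, and Pccb, a subunit of mitochondrial propionyl-CoA carboxylase, and is 2250 bp wide. It had 922, 1016 and 954 normalised reads in the active libraries, against 1064, 982 and 1051 in the inactive libraries. Its interval, -0.19 to -0.004, is the one that left out 0, at an adjusted p of 0.0663 by limma.

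In 2 of the 10 strongest regions, all active values were below all inactive values although the means were within the bound. Near Samd11, chr4:156389884-156391605 had 927, 951 and 920 in the active libraries, against 970, 957 and 1020 in the inactive libraries. Beside Mylk2, the gene of a muscle myosin light chain kinase, chr2:152745572-152746724 had 862, 869 and 825 in the active libraries, against 892, 913 and 890 in the inactive libraries. Neither passed limma's threshold (adjusted p of 0.158 and 0.157).

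Of the others among the 10, 1 was inside Snx29, a sorting nexin gene, and 1 between Rbl2, a retinoblastoma-family gene, and Fto, an RNA demethylase gene. At chr16:11273471-11274971 in Snx29 the active libraries had 823, 820 and 757 normalised reads, against 840, 812 and 891 in the inactive libraries. At chr8:91860287-91861087 the active libraries had 782, 806 and 852, against 838, 851 and 806 in the inactive libraries. Both overlapped between the lines, as did 801 of the 840, which the choice favours. The mean was lower in the active line at all 10 of the strongest regions, whereas over all 840 the ratio was positive in 397, negative in 433 and exactly 0 in 10.

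**Figure D2:**
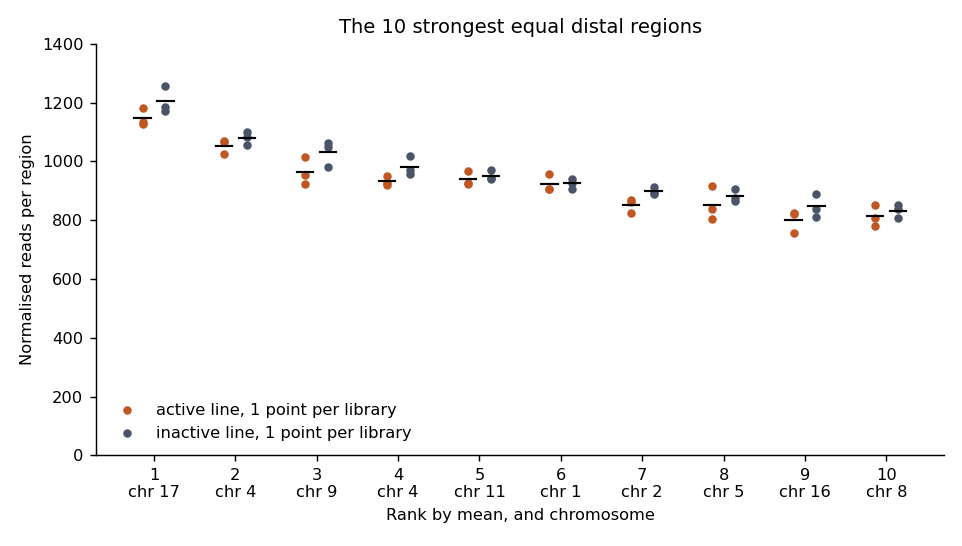
Normalised reads (y axis) in each of the 6 libraries for the 10 equal regions with the largest mean, in order of rank and marked by chromosome (x axis), with active libraries left of inactive libraries. Points are libraries and short lines are line means. In 8 of the 10 regions the points of both lines overlap, beside 801 of all 840, which the choice favours.

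The changed regions of the same kind show what the bound left out. The strongest region higher in the active line, chr8:124159664-124160982 inside Def8, had 782, 843 and 764 normalised reads in the active libraries, against 153, 162 and 183 in the inactive libraries (log2 ratio 2.26). The strongest lower one, chr1:135682957-135684015 between Csrp1 and Phlda3, had 311, 302 and 267 in the active libraries, against 606, 655 and 663 in the inactive libraries (log2 ratio -1.13). Neither overlapped between the lines.

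Just inside the limit on strength were regions with means of 150 (2 regions) and 150.2 normalised reads, and just outside it equal regions with 149.7, 149.5 and 149.5. At the upper bound the log2 ratios just inside were 0.0993, 0.0990 and 0.0987, and just outside 0.1008, 0.1009 and 0.101. At the lower bound they were -0.09997, -0.09992 and -0.09984 just inside, and -0.1001, -0.1005 and -0.1012 just outside. The edges therefore fall within a dense run of regions. The region just inside the upper bound, chr15:77037808-77038237 in Rbfox2, an RNA splicing factor gene, had 148, 166 and 182 in the active libraries, against 139, 170 and 154 in the inactive libraries, a spread within each line larger than the difference between the line means of 165.3 and 154.3.

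How far the libraries could show equality depended on the strength of the region. The standard error of the limma log2 fold change ran from 0.04 to 0.13 over the 840 regions (median 0.08), and the 95% interval extended by a median of 0.16 to either side of it. The interval lay inside a log2 bound of 0.15 for 41 regions, inside 0.2 for 313 (37.26%) and inside 0.3, a 1.231-fold difference, for 835 (99.4%). Differences smaller than a region's own interval were not detectable in it at this depth.

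Membership also moved with single libraries. When 1 library at a time was left out, between 684 and 726 of the 840 stayed below the bound, 684 without active library 2 and 726 without inactive library 1, and 395 (47.02%) stayed whichever library was left out. The largest absolute log2 ratio that any of them reached was 0.22. Of the regions with a mean of 150 to 200, 36.86% stayed under all 6 omissions, of those of 300 to 500, 56.63%, and of those of at least 500, 55.41%.

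Summed over the 840 regions, the active libraries held 242313, 243622 and 242402 normalised reads, against 242519, 244373 and 243784 in the inactive libraries. That was between 3.72% and 3.772% of a library. The 130 higher regions held 40034, 40892 and 40807 in the active libraries, against 15054, 14771 and 14720 in the inactive libraries, and the 80 lower regions held 9658, 9491 and 9684 in the active libraries, against 23571, 24694 and 24434 in the inactive libraries.

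A measure that the choice did not use is how much the libraries of 1 line differed from one another over the equal regions. The median absolute deviation of a library from the mean of the other libraries of its line, on the log2 scale, was 0.09026, 0.08718 and 0.08304 in the active libraries, against 0.06702, 0.07618 and 0.06587 in the inactive libraries. All active values were above all inactive values, with a mean of 0.0868 ± 0.0036 in the active line and 0.0697 ± 0.0056 in the inactive line (SD, n = 3 each). A two-sided exact permutation test gave p = 0.1, the smallest p that 3 libraries against 3 allow. Each value also uses the other libraries of its line, so the 3 values of a line are not independent. The SD and p-value are therefore descriptions only. The same order held for the 270 equal regions of mean 300 or more, where the difference was 0.01997. Estimated read depth moved with it, since every active library was shallower by the estimates, and its part in the difference was not tested.

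Equal regions were more frequent among stronger regions. Their share was 7.995% of the 17486 distal regions with a mean of 10 to 50, 12.97% of the 10319 with a mean of 50 to 150, and 18.54% of the strong ones. Within the strong ones it was 15.7% at 150 to 200, 19.33% at 200 to 300, 19.6% at 300 to 500 and 26.81% (74 of 276) at 500 and above. No region of that last class changed 2-fold. Of strong promoter regions, 23.85% (1762 of 7387) met the same bound. The standard error falls with strength as well, with a median of 0.09 in equal regions of 150 to 200 and 0.06 in those of 500 and above, and its part in these shares was not tested.

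The equal regions were between 251 and 2364 bp wide, with a median of 747.5 bp (quartiles 607 and 949.2). The median was 688.5 bp (587.5 and 827.8) in the higher regions and 841.5 bp (727.5 and 989.8) in the lower regions, so the equal regions sat between them. Over all strong distal regions it was 736 bp. Within classes of strength the medians of equal and higher regions came together: at 150 to 200 normalised reads the medians were 652 bp for equal, 663.5 bp for higher and 901 bp for lower regions, at 200 to 300 they were 725, 729.5 and 824 bp, and at 300 to 500 they were 858, 853 and 936 bp. The lower regions had the widest median in each of these 3 classes, though the last holds 8 of them. Reads per 100 bp, not matched for strength, had a median of 34.04 in equal regions, 28.85 in higher and 24.65 in lower ones.

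**Figure D3:**
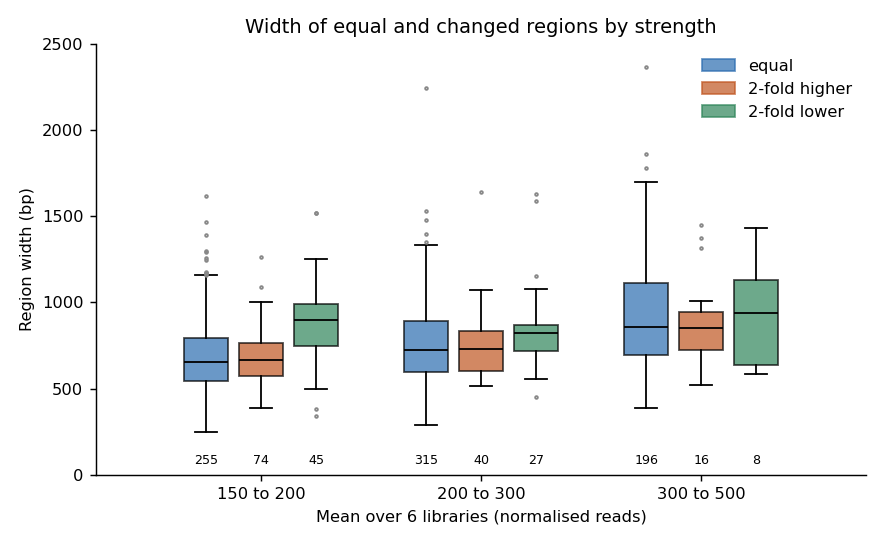
Region width in bp (y axis) by class of mean normalised reads (x axis) for equal, higher and lower strong distal regions, as boxes with the median and quartiles; regions of 500 and above are left out because none changed 2-fold. Box lines are medians, whiskers reach the farthest region within 1.5 box lengths and the number under a box is its regions. Equal and higher regions have nearly the same medians in each class (652 against 663.5 bp at 150 to 200), and lower regions are wider (901 bp).

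At the wide end, chr5:113354922-113357286 (2364 bp, in the gene 2900026A02Rik) had 366, 392 and 387 normalised reads in the active libraries, against 394, 368 and 419 in the inactive libraries. The chr9 region beside Nck1 was the second widest. Inside Rreb1, a zinc-finger gene that acts downstream of Ras, chr13:38009743-38011990 spread 234, 231 and 188 reads in the active libraries, against 226, 214 and 258 in the inactive libraries, over 2247 bp, which made it a wide but weak region. The fourth, chr15:85553532-85555690, had 714, 804 and 696 in the active libraries, against 772, 737 and 761 in the inactive libraries.

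The narrowest were compact peaks inside genes. The narrowest, chr1:160359066-160359317 in Rabgap1l, a Rab GTPase-activating protein gene, packed 196, 193 and 181 reads in the active libraries, against 195, 194 and 167 in the inactive libraries, into 251 bp. Those in Gfod1 (chr13:43417194-43417454), Ltbp1 (chr17:75419941-75420228) and Lrrc8d (chr5:105975009-105975335) were 260, 287 and 326 bp wide. Ltbp1 encodes a matrix protein that holds latent TGF-beta, and Lrrc8d a subunit of the volume-regulated anion channel. All 4 of these regions overlapped between the lines, as did 801 of the 840 equal regions, which the choice favours.

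The gap to the nearest other region of the table had a median of 5224 bp (quartiles 1924 and 11100) for equal regions, 6594 bp for higher and 5922 bp for lower regions, and 5296 bp for all strong distal regions. The nearest region was within 1000 bp for 13.93% of equal, 12.31% of higher and 13.75% of lower regions. It was beyond 50 kb for 16 of 840 equal (1.905%), 9 of 130 higher (6.923%) and 0 of 80 lower regions. The order of the medians turned round with a mean of at least 300. The median of the equal regions was then 1525 bp above that of the higher regions and 3710 bp above that of the lower ones. That limit leaves 16 higher and 8 lower regions. In the other settings the difference to the higher regions stayed negative, between -2738 and -285 bp. The difference to the lower regions changed sign in further settings, such as 500 bp with changed as past the limma threshold. No difference in spacing of a stable size is therefore shown, and for the lower regions none of a stable sign.

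The most isolated equal region was on the X chromosome. At chrX:59448765-59450175, between Rbmx and Fmr1, the gap to the nearest region was 2467328 bp, and the region had 310, 376 and 334 normalised reads in the active libraries, against 380, 316 and 376 in the inactive libraries. The next most isolated were chr2:9486396-9487201 (138067 bp), chrX:158315414-158316287 (93602 bp, near Sh3kbp1) and chr17:4958141-4959075 (85153 bp, near Arid1b, a chromatin-remodelling subunit). The values of the lines overlapped in all 4, which the choice of equal regions favours, and 2 of the 4, both on the X chromosome, passed the bound of 0.1 when some single library was left out.

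At the other extreme, 4 equal regions had a neighbour within 172 bp, and these neighbours did not all share their behaviour. On chromosome 19, chr19:21054965-21055760 between Aldh1a7 and Zfand5 had 183, 203 and 175 in the active libraries, against 158, 193 and 183 in the inactive libraries. The region 172 bp beyond it, chr19:21055932-21056189, had 68, 76 and 88 in the active libraries, against 14, 17 and 25 in the inactive libraries, a log2 ratio of 2.05 (limma log2 fold change 2.02 ± 0.20 SE, adjusted p = 2.577e-11). So a strong equal peak and a weak changed peak stood side by side.

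The other close neighbours changed less or not detectably. The neighbour 132 bp from chr2:136762577-136763363 had 28, 32 and 45 in the active libraries, against 33, 27 and 44 in the inactive libraries, which overlap. The neighbour 145 bp from chr1:88401793-88402937 had 145, 122 and 127 in the active libraries, against 109, 99 and 93 in the inactive libraries, and passed the limma threshold (log2 ratio 0.39, adjusted p = 0.003728). The neighbour 170 bp from chr4:87902896-87903397 in Mllt3, a gene of the transcription elongation machinery, had 84, 88 and 87, against 70, 63 and 69 (log2 ratio 0.36, adjusted p = 0.02095 by limma).

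By their medians, equal regions lay nearer to start sites than higher regions and farther than lower ones. The nearest start site of a gene that the table lists lay at a median of 32880 bp from equal regions, 47990 bp from higher and 28610 bp from lower regions. It was at least 5273 bp away from every equal region, which the choice of regions without an attached gene favours. The centre fell inside the bounds of a listed gene for 386 of 840 equal regions (45.95%), 44 of 130 higher regions (33.85%) and 36 of 80 lower regions (45%), with 44.72% for all strong distal regions. The table gives the gene's first and last base and not its exons, so exonic and intronic positions were not separated. Start sites were taken from these outer bases, so a region at a start site inside a gene is not recognised as such.

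Neighbouring regions of equal regions were themselves closer to equal than those of changed regions. Within 50 kb, and counting neighbours with a mean of at least 10, the median absolute log2 ratio around a region had a median of 0.36 for the 818 equal regions with a neighbour, 0.78 for 120 higher regions and 0.57 for 79 lower regions, beside 0.40 for all strong distal regions. With its sign, the neighbours' median ratio was -0.09 for equal, 0.74 for higher and -0.45 for lower regions. The middle 80% of equal regions had neighbours between -0.46 and 0.46, so the measured ratios around a strong equal region were not all near 0. Many neighbours are weak, and 36.71% of distal regions with a mean of 10 to 50 changed 2-fold, against 4.636% of strong ones. With neighbours of mean at least 50, the median absolute log2 ratio around equal regions was 0.27. The part of read noise in weak neighbours was not tested. Neighbours share libraries and chromosome with the region, so these values are descriptions of the table.

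The gap to the changed regions was much smaller when changed meant only past the limma threshold. It was then -0.08 (equal minus higher) and -0.06 (equal minus lower), against -0.42 and -0.21 with the 2-fold limit.

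**Figure D4:**
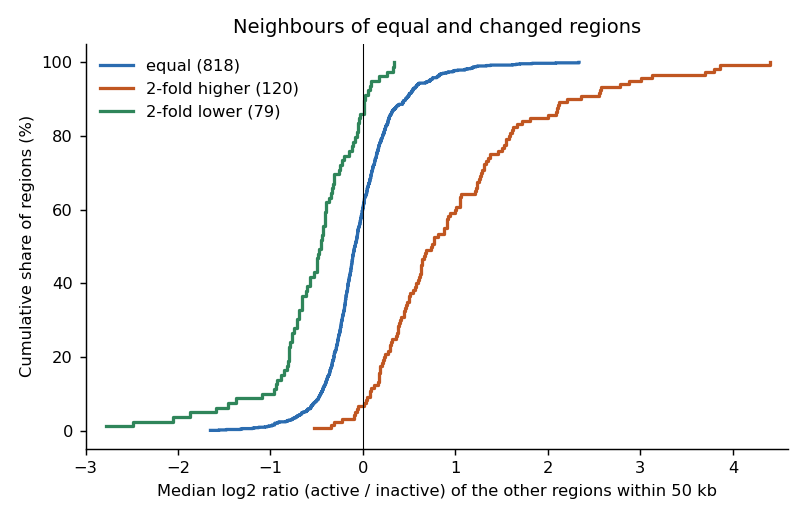
Cumulative share of regions in percent (y axis) against the median log2 ratio (active over inactive, x axis) of the neighbours within 50 kb, for equal, higher and lower strong distal regions. The curve of the equal regions crosses 50% near -0.09, the higher regions lie to the right (median 0.74) and lower regions to the left (median -0.45).

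Of the equal regions, 472 had a neighbour of mean at least 50 within 10 kb, and in 47 of these (9.958%) at least 1 such neighbour changed 2-fold. The same was so for 29 of 59 higher regions (49.15%), 13 of 43 lower regions (30.23%) and 13.32% of all strong distal regions. The 6 equal regions beside the most changed neighbours showed both directions.

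On chromosome 5, chr5:29903451-29903911 near Dnajb6, a chaperone gene, had 223, 180 and 229 normalised reads in the active libraries, against 217, 239 and 209 in the inactive libraries. At 4262 bp from it, chr5:29908173-29908385 had 103, 87 and 86 in the active libraries, against 22, 16 and 17 in the inactive libraries (log2 ratio 2.33). Also on chromosome 5, 2 equal regions inside Smarcd3, a subunit of the SWI/SNF chromatin remodeller, lay beside 1 changed region. They were chr5:24806559-24808256, with 326, 327 and 298 in the active libraries, against 294, 281 and 315 in the inactive libraries, and chr5:24809500-24810097, with 181, 217 and 207 against 189, 174 and 209. The changed region, chr5:24816773-24817462, was 6676 bp from the nearer one and had 213, 247 and 203 in the active libraries, against 44, 45 and 51 in the inactive libraries (log2 ratio 2.24).

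In the opposite direction, chr17:84286454-84287110 between Haao and Zfp36l2, which encodes an mRNA-decay factor, had 275, 249 and 286 in the active libraries, against 285, 278 and 257 in the inactive libraries. Its neighbour 3187 bp away, chr17:84290297-84291003, had 58, 71 and 47 in the active libraries, against 217, 239 and 246 in the inactive libraries (log2 ratio -2.00). Both groups of values overlapped at the equal region and were far apart at its neighbour, which the choice of both favours.

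Inside Nr4a1, an immediate-early nuclear receptor gene, chr15:101164084-101165023 had 659, 682 and 690 in the active libraries, against 643, 696 and 668 in the inactive libraries. The region 5453 bp from it, chr15:101158080-101158631, had 23, 21 and 34 in the active libraries, against 111, 94 and 104 in the inactive libraries (log2 ratio -1.99). That neighbour is a promoter region and not a distal one, with its centre 204 bp from the start site of a gene without a symbol. Whether the equal region itself lies at a start site inside Nr4a1 was not examined. The last of the 6, chr1:183783577-183784551, had 302, 279 and 288 in the active libraries, against 291, 295 and 294 in the inactive libraries, beside chr1:183778360-183778864 at 4713 bp with 23, 23 and 35 against 98, 110 and 101 (log2 ratio -1.93). The 5 changed neighbours passed limma's threshold with adjusted p-values between 4.376e-19 and 1.008e-12, as did 60.1% of all regions tested. They were picked for their large ratios, so these p-values follow from the choice and are no support.

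The nearest promoter region, at a median distance of 47610 bp, was called higher for 162 equal regions (19.29%), lower for 279 (33.21%) and not called for 399 (47.5%). For the 130 higher regions it was called higher in 84 (64.62%), and for the 80 lower regions it was called lower in 54 (67.5%). Over all strong distal regions 24.28% were called higher, 37.59% lower and 38.12% not called. The median log2 ratio of that promoter was -0.07 for equal, 0.31 for higher and -0.42 for lower regions. Among equal regions with a promoter within 20 kb, 215 of 840, the promoter was called higher in 43, lower in 72 and not called in 100. For higher regions with such a promoter it was called higher in 18 of 25, and for lower regions it was called lower in 17 of 24. The share over all strong distal regions was not taken at this distance, so nothing is read from these counts.

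Along the chromosomes, the strong distal region that followed an equal one was itself equal in 195 of 837 cases (23.3%), beside 18.54% of strong distal regions overall. After a higher region the next was higher in 12 of 129 cases (9.302%, beside 2.882% overall), and after a lower region it was lower in 7 of 80 (8.75%, beside 1.774%). Most equal regions stood alone in that order: there were 498 single ones, 108 runs of 2, 30 of 3 and 9 of 4. The shortest of the 9 runs of 4 spanned 623.3 kb on chromosome 1, chr1:180214810-180838087, near Itpkb, an inositol trisphosphate kinase gene, and Ephx1, an epoxide hydrolase gene. Its 4 regions had means between 307.8 and 503.5 normalised reads, and the 27 other regions in the span had a median log2 ratio of -0.18.

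The equal regions were spread unevenly over the 20 chromosomes. Their share of the strong distal regions was highest on chromosome 3 (62 of 205, 30.24%) and chromosome 4 (76 of 254, 29.92%), followed by the X chromosome (15 of 63, 23.81%) and chromosome 1 (84 of 354, 23.73%). It was lowest on chromosome 18 (14 of 182, 7.692%), chromosome 12 (11 of 127, 8.661%), chromosome 6 (30 of 320, 9.375%) and chromosome 9 (20 of 181, 11.05%).

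The chromosomes at both ends of this order differed in the level of the whole chromosome, but not every shifted chromosome had few equal regions. Over all regions of chromosome 3 the median log2 ratio was -0.06, and on chromosome 4 it was 0.005. It was 0.51 on chromosome 12 and 0.31 on chromosome 6, and -0.38 on chromosome 18 and -0.29 on chromosome 9. Chromosome 13, with a median of 0.34, and chromosome 15, with 0.27, nevertheless had shares of 18.1% and 18.11%, close to the 18.54% of all chromosomes. Grouped by the median ratio of all regions in their 10 Mb window, 25.37% of strong distal regions were equal where that median was within 0.1 of 0, then 21.39%, 16.23% and 10.91% with growing distance, and 3.766% (9 of 239) where it was 0.5 or more from 0. The ratio of a region is part of its window's median, which also holds many other regions. A shift of a whole window also moves the ratio of each region in it, so smaller shares in shifted windows follow in part from the bound. NIH3T3 has an abnormal number of chromosomes, and the number of DNA copies in each line was not measured here, so a difference in copies and a difference in accessibility per copy cannot be told apart.

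**Figure D5:**
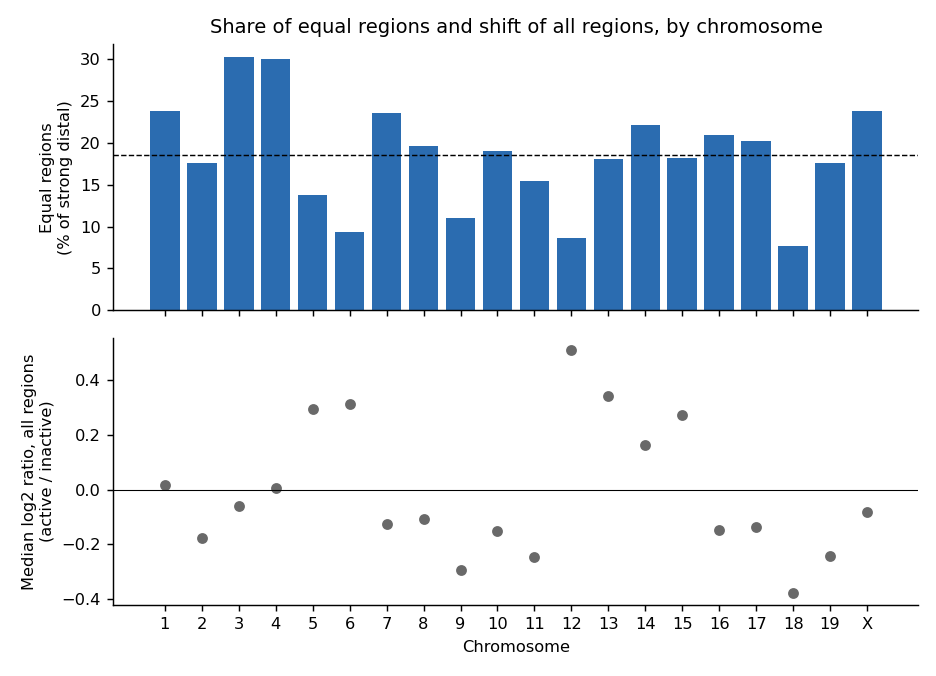
For each of the 20 chromosomes (x axis), bars in the upper panel give the percent of strong distal regions that are equal, with the share over all chromosomes as a dashed line, and points in the lower panel give the median log2 ratio of all regions (active over inactive). Chromosomes 3 and 4, near 0, have the highest shares (30.24% and 29.92%), and chromosomes 12 and 18, far from 0 on either side, the lowest (8.661% and 7.692%).

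All 11 equal regions of chromosome 12 lay in windows with a median of 0.35 to 0.64, and all 14 of chromosome 18 in windows with a median of -0.62 to -0.22. Centring the values on each window's median therefore moves such regions away from 0 in a direction that their choice fixes, and the calls that follow are given as a description. With centring, limma called all 11 on chromosome 12 lower and 13 of the 14 on chromosome 18 higher, and on chromosome 3 it called 5 of 62 higher. Over all 840, 139 were called higher and 134 lower, while 49.9% of the 51253 regions tested were called in that fit, 27.6% higher and 22.4% lower. Within 0.1 of their window's median lay 337 of the 840 (40.12%). Which regions are called equal thus depended on whether equal is read against the library or against the window.

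Within chromosomes, 208 of the 266 windows with a strong distal region held at least 1 equal region. Of the 181 windows with at least 10 strong distal regions, 17 held none. They included the 4 adjoining windows from 20 to 60 Mb of chromosome 9, with 10, 11, 21 and 14 strong distal regions and window medians of -0.75, -0.54, -0.65 and -0.79. The rest of chromosome 9 held all of its 20 equal regions.

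Chromosome 11, which carries Actg1, had 40 equal regions, all of them before Bahcc1, a gene beside Actg1. The last of them, chr11:115264772-115266124 between Hid1 and Cdr2l, had 205, 239 and 218 normalised reads in the active libraries, against 202, 222 and 222 in the inactive libraries, and the one before it, chr11:113620774-113621245 in Cdc42ep4, which encodes an effector of the Cdc42 GTPase that organises actin, had 345, 306 and 298 against 344, 288 and 290. The last region is 4.858 Mb from the Bahcc1 region. In the stretch behind it, 37 strong distal regions followed up to the end of the chromosome. None of them was equal, by definition, since the stretch begins behind the last equal region. Of the 37, 34 were lower and 3 higher in the active line, with a median log2 ratio of -0.37 and a range of -1.03 to 0.43. All 330 regions of that stretch had a median of -0.31. The windows of 90 to 100 and 100 to 110 Mb, with 2 and 3 equal regions, had medians of -0.30 and -0.33. The stretch behind the last equal region was chosen after its values were seen, and whether its DNA copies differ between the lines was not tested.

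Equal regions lay beside genes of 4 lists: matrix genes, actin and SRF target genes, AP-1, TEAD and RUNX factors, and growth factor and TGF-beta genes. A region counts for a gene when its next region with a gene symbol, on either side, belongs to that gene, which does not show that it acts on it. The distance to that gene's region reached 1211 kb, for an equal region listed for Acvr1. The actin and SRF list was a neighbour of 14 equal regions (1.667%), 1 higher and 1 lower region, and 1.302% of all strong distal regions. The matrix list was a neighbour of 12 (1.429%, beside 1.81% of all), the factor list of 5 (0.5952%, beside 0.7506%) and the growth factor list of 17 (2.024%, beside 2.075%). These shares are all near those of strong distal regions as a whole. The growth factor list was a neighbour of 6 of 130 higher regions (4.615%) and 0 of 80 lower ones.

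In the actin group, 4 equal regions neighboured Mrtfb and 1 Mrtfa, the genes of the coactivators that bind monomeric actin and drive SRF target genes. The strongest, chr16:13322448-13323684, lay 247.4 kb from the Mrtfb region. It had 461, 458 and 444 normalised reads in the active libraries, against 465, 469 and 474 in the inactive libraries. Its values were close but did not overlap (adjusted p = 0.5122 by limma). The region in Mrtfa, chr15:81021339-81022084, had 336, 297 and 301 in the active libraries, against 290, 365 and 337 in the inactive libraries. The region 18.75 kb from that of Actb, the gene of cytoplasmic beta-actin, chr5:142914623-142915422, had 227, 235 and 248 in the active libraries, against 235, 244 and 244 in the inactive libraries. All but the Mrtfb region overlapped, as did 801 of all 840, which the choice favours.

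Cnn3, the gene of the actin-binding protein calponin 3, had 3 equal neighbours, between 156.6 and 174.2 kb from its region. At 36.5 kb from the region of Vcl, the gene of the focal adhesion protein vinculin, chr14:20941827-20942482 had 291, 279 and 257 in the active libraries, against 284, 281 and 248 in the inactive libraries. At 31.03 kb from the region of Ccn1, a matricellular gene and SRF target, chr3:145390532-145391351 had 285, 337 and 295 in the active libraries, against 302, 305 and 305 in the inactive libraries. The 2 changed regions of this list lay elsewhere. In Pxn, the focal adhesion gene paxillin, chr5:115672986-115673995 was higher, with 418, 394 and 467 against 190, 208 and 241. On the side of Diaph1, a formin gene, chr18:37968368-37969360 was lower, with 115, 118 and 99 against 252, 262 and 220. It lay 98.63 kb from the Diaph1 region, with its centre inside the bounds of protocadherin genes (Pcdhga1, Pcdhgb8, Pcdhgc3 and Pcdhgc5 among them).

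Some genes had both equal and changed neighbours. On the side of Jun, an AP-1 subunit gene, the equal chr4:95049300-95050125 lay 107.6 kb from the Jun region. It had 471, 622 and 538 normalised reads in the active libraries, against 515, 556 and 516 in the inactive libraries. The lower chr4:95205885-95206528, at 264.2 kb from the Jun region, had 205, 178 and 202, against 384, 436 and 427. On the side of Inhba, which encodes a subunit of activin and inhibin, 2 regions were equal and 3 were higher. The equal chr13:16020288-16020984, 161.4 kb from the Inhba region, had 185, 173 and 246 in the active libraries, against 195, 202 and 186 in the inactive libraries. The higher chr13:15952116-15952734, at 229.7 kb, had 307, 288 and 278, against 84, 85 and 69. On the side of Timp3, a metalloproteinase inhibitor gene nested in Syn3, chr10:86106066-86106761 was equal, with 223, 223 and 239 against 212, 203 and 236. There chr10:86125904-86126654 was lower, with 108, 99 and 99 in the active libraries, against 180, 207 and 232 in the inactive libraries. Tnc, a matrix glycoprotein gene, also had 1 equal and 1 higher neighbour, 586.6 and 275.7 kb from its region.

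Among growth factor and TGF-beta genes, the strongest equal region was chr8:25764353-25765576, the next region with a symbol on 1 side being that of the receptor gene Fgfr1, 243.1 kb away. It had 669, 694 and 717 in the active libraries, against 622, 671 and 651 in the inactive libraries, which overlap (limma interval -0.01 to 0.20). Smad3, a signal transducer of TGF-beta, held 2 equal regions within its bounds, and Tgfbr2, a TGF-beta receptor gene, held 1 and neighboured another. The one in Tgfbr2, chr9:115981796-115982493, had 279, 256 and 344 in the active libraries, against 309, 323 and 301 in the inactive libraries. Smad7, an inhibitor of the pathway, neighboured 2 on chromosome 18. Inside its bounds, chr18:75508545-75508986 had 185, 216 and 213 in the active libraries, against 230, 211 and 215 in the inactive libraries. The other lay inside Ctif, 125.5 kb from the Smad7 region. Acvr1, Bmp4, Hbegf, Igf1r, Ski and Vegfa each neighboured at least 1 equal region.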

How the data were processed

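ATAC-seq libraries of the active and inactive line (3 each) were analysed from 1 deposited table. Its values are a score: region read totals scaled per library by the authors and rounded, as judged from the deposited values. The distance to a start site is a deposited column, treated as a never-negative signal value. Per the submitters' processing notes, reads were handled with STAR 2.7.11a, Trimmomatic 0.39, DESeq2 1.36.0, Picard 3.1.1 and featureCounts on build mm39; the peak caller is not given in the sources used here. Rounded scaled values are no raw counts, so limma 3.58.1 (R 4.3.3) with a trend was fitted to log2(value + 1) of regions with a mean of at least 10, with Benjamini-Hochberg adjustment over all of them. Ratios, gaps and shares used Python 3.11.15 with pandas 2.3.3. The fit was tested on simulated data. Depth was estimated from skipped whole numbers.

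Members and lists were chosen with earlier results of these data known. Named regions were the 10 strongest, the 4 widest, narrowest, most isolated and closest, the 6 beside the most changed neighbours, those nearest to Actg1 (the gap between Bahcc1 and Faap100), those at each limit, and the strongest changed ones; regions beside listed genes and the close neighbours were named after their values were seen. Replicate numbers did not pair the libraries. Some named regions are not reported here.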

Additional observations from a re-analysis of the deposited data

How the results depend on the processing

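The number of equal regions was 1285 with a mean of at least 100, 270 with at least 300, 401 with a log2 bound of 0.05, 1691 with a bound of 0.2, and 529 at least 20 kb from any region with a gene; it was 829 to 882 with 1 library left out. Their median width was 692, 788 and 923 bp with a mean of at least 100, 200 and 300, 734 bp with the bound of 0.05, and 739 to 749 bp with 1 library left out. Their median gap was 5511 and 5878 bp with a mean of at least 100 and 300, 4931 bp with values centred on 10 Mb windows and 5997 bp at 20 kb from genes, and their neighbours' median absolute log2 ratio was 0.31 with centring, 0.27 with neighbours of mean at least 50, and 0.3455 to 0.3684 with 1 library left out.

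The width of equal minus higher regions, 59 bp, was -1.661 bp with the changed regions weighted to the members' classes of mean. Equal minus lower, -94 bp, was -53.5, -36 and -13 bp with a mean of at least 100, 200 and 300, -60.5 bp with changed as a log2 ratio of 0.58, -34 bp with changed as past limma's threshold, and -135.9 bp with the weighting. The gap of equal minus higher regions, -1370 bp, was -285 and 1525 bp with a mean of at least 200 and 300, -2738 bp with centring, and -1493 to -621 bp with 1 library left out (-621 without active library 3). Equal minus lower, -698 bp, was 378 and 3710 bp with a mean of at least 100 and 300, -1577 bp at 20 kb from genes, 21 bp with 0.58, 500 bp with limma's threshold, 125.2 bp with the weighting, and -765 to -265.5 bp with 1 library left out (-265.5 without active library 2). Weighting by the mean of the higher line instead, an alternative chosen after seeing the data, gave 29.15 and -89.53 bp for width. The cause was not tested.

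The neighbours' difference, equal minus higher, -0.42, was -0.28 with a mean of at least 300, -0.23 with 0.58, -0.077 with limma's threshold, -0.19 within 500 kb, and -0.5584 to -0.3761 with 1 library left out. Equal minus lower, -0.21, was -0.056 with limma's threshold, -0.13 within 500 kb, and -0.2335 to -0.1262 with 1 library left out (-0.1262 without active library 3). The share on chromosome 3 was 13.66% and 52.2% with bounds of 0.05 and 0.2, and on chromosome 18 2.747%, 16.48% and, with centring, 32.42%. With quantile normalization, limma called 5 members higher, and 680 of its 868 members were shared (78.34% of them, 80.95% of the 840); it moved the median of all regions to -0.07, against -0.02. With centring it called 139 higher and 134 lower, and 337 of its 1223 members were shared (27.56% and 40.12%). With 1 library left out it called 0 to 1 higher and 0 to 4 lower.

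Replicate numbers share only a number: the deviations of same-numbered libraries correlated at 0.001, -0.006 and -0.016. With the replicate block limma called 15749 regions higher and 14858 lower, against 15827 and 14957 without it, and 0 members. Depth limits what equality can mean: the 95% interval of a member's log2 fold change extended by a median of 0.164 to either side, and lay inside 0.15 for 41 of 840 and inside 0.3 for 835.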
